A study of Danio rerio with 20 samples.

Results

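The collagen chain genes were taken from a bulk RNA-seq matrix of adult zebrafish hearts as the gene symbols that begin with col, a type number, the letter a and a chain number, without col11a1b, and with at least 1 CPM (the usual read count of a gene scaled to the total of its library) in at least 2 libraries. The pattern matched 27 symbols, and 19 of them met the rule, out of 14781 genes in the matrix and 10914 that passed the same filter on low values. The 19 members fall into 10 fibrillar chains, 3 basement membrane chains, 5 other chains and 1 gene that is no collagen. That gene is col4a3bpa, which the RefSeq gene table lists as cert1a, the ceramide transfer protein, and it is counted among the members but described apart. A further 7 matching symbols lay under the filter (col10a1a, col28a1a, col2a1a, col5a3b, col8a1a, col9a1a and col9a1b). Just inside the threshold were col11a2 and col17a1a, each with 1 CPM or more in 3 libraries. For col11a2 these were both untouched mutant libraries and 1 of mutants at 2 dpi, and for col17a1a both untouched wild-type libraries and 1 of wild type at 5 dpi. Both genes thus entered through a group where they were high, so their differences from that group are given as levels and are no support for a change, although they stand in the counts of calls. Just outside it were col10a1a, which reached 7.38 CPM in 1 library, a wild-type untouched one, and col8a1a, which reached 1.71 CPM in 1 library.

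The study followed heart regeneration in zebrafish of 4 to 6 months. Each of the 20 libraries held RNA of cardiomyocytes isolated from 8 pooled ventricles. Fish were wild type or kit mutant, which the labels give as kita(w34b2);kitb(sa15356), and were untouched or had about 20% of the ventricular apex cut away and were sampled 2, 5, 7 or 14 days post injury (dpi). Each of the 10 groups had 2 libraries, and nothing in the labels says more about how the replicate pools were formed, so p-values measure the spread between these libraries. The injured groups were compared with untouched fish of their own genotype.

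Collagens are trimers of alpha chains wound into a triple helix. Fibrillar chains form the banded fibres that give tissue its tensile strength, with type I as the bulk material and types V and XI as minor partners that set fibre nucleation and width. Basement membrane chains lie in or beside the sheets that surround muscle cells, vessels and epithelia. In the injured zebrafish heart, fibroblasts and epicardium-derived cells are known as the main makers of fibrillar collagen, and the collagenous scar is transient.

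Levels are given as scaled CPM, the deposited CPM divided by a factor per library that lines up the median gene, and differences as log2(scaled CPM + 1), which understates the change of low genes. A call means an adjusted p under 0.05 in a limma fit of all 10 groups, adjusted over all 10914 tested genes. The libraries held 14.6 to 31.7 M reads. In mutants that were untouched, at 2 dpi and at 7 dpi, the 2 libraries of a group were nearly alike, with a mean chi-square per gene of 2.51, 3.73 and 1.95 (median 0.862, 0.957 and 0.775), where the other 7 groups had means of 13.9 to 46.6. Results were therefore also computed with each of these 3 pairs averaged into 1 library. That value is given for most calls of a named gene that it ended and for the member counts that it moved by 1.5 times or more. It is not given for every count of the gene lists or for each response difference. Both mutant libraries of 2 dpi were sequenced in lane 7 and the other 18 in lane 8, so lane cannot be told apart from that group. Wild-type and mutant libraries of lane 8 reuse sample numbers, so the genotypes may come from separate runs. A run could then not be told apart from genotype. Levels of kita ranged from 0.373 to 1.60 scaled CPM and those of kitb from 0 to 0.322 over all 20 libraries. The sources used here do not say what the alleles do to their transcripts, so these levels check no label.

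The libraries, labelled cardiomyocytes, held high levels of cardiomyocyte genes and also genes of other heart cells. Of 8 cardiomyocyte markers, 6 were in the matrix, and their summed level ranged over group means from 36739.6 scaled CPM in mutants at 2 dpi to 90204 in untouched wild type. All 14 listed markers of epicardium and fibroblast were in the matrix and pdgfrb was listed at 0 in every library. Their summed level was 3788 scaled CPM in untouched wild type, then 14001, 14940, 15746 and 9130 at 2, 5, 7 and 14 dpi. In mutants it was 4340, then 20199, 15725, 12942 and 9140. Like the fibrillar sum, the marker sum was higher in every injured group than in untouched fish of the same genotype, but the courses differed otherwise. From 2 to 5 dpi in wild type and from 7 to 14 dpi in mutants the mean marker sum and the mean fibrillar sum went opposite ways. The wild-type marker sums overlapped, with 13236 and 14766 at 2 dpi and 15385 and 14496 at 5 dpi. Untouched mutants had the higher marker sum and the lower collagen sum. A large part of the marker sum is 1 gene, fn1b, with 1598 and 1535 scaled CPM in untouched wild type and 3029 and 2978 in untouched mutants. In wild type fn1b went from 4762 and 5220 at 2 dpi to 8122 and 7542 at 5 dpi. Of 13 tested markers, 11, 13, 13 and 11 were called higher in wild type at 2, 5, 7 and 14 dpi. Of all genes, 26.4%, 15.9%, 17.5% and 13.2% were. At 2 dpi 1 marker was called lower (25.2%), and tbx18 went from 61.1 and 73.0 untouched to 44.5 and 56.6. In mutants 13, 13, 12 and 11 were higher (27.5%, 26%, 8.83% and 21.3%). Of the 13 tested markers, 2 were called higher and 7 lower in untouched mutants than in untouched wild type (18.9% and 21.2% of all genes). The part of these cells in the collagen results was not tested. In bulk RNA, fewer cells of a type and less RNA per cell cannot be told apart.

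Injury was followed by a rise of the type I chains, type V alpha 2 and col11a1a in both genotypes, while col9a2, a chain known from cartilage, and col15a1b, a chain of basement membranes, fell in wild type at all 4 times. Against untouched wild type, 5 members were higher and 7 lower at 2 dpi, where 26.4% of all tested genes were called higher and 25.2% lower. At 5 dpi, 8 members were higher and 5 lower (15.9% and 17% of all genes). At 7 dpi, 9 were higher and 4 lower (17.5% and 17.3%). At 14 dpi, 5 were higher and 5 lower (13.2% and 11.6%). Of these calls, 9 of 12, 7 of 13, 9 of 13 and 8 of 10 held under all 28 alternatives. Here and below, a call counts as held where an alternative did not test the gene. This concerns col11a2, col17a1a, col4a5, col9a3 and col28a1d, which a filter of 5 CPM left out. With CPM as deposited, which moved the median of all genes by 0.27 at 2 dpi and 0.17 at 5 dpi, the splits were 9 higher and 5 lower at 2 dpi and 9 higher and 3 lower at 5 dpi. The 5 dpi count fell from 13 to 8 without untouched replicate 2 or without 5 dpi replicate 1.

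In wild type col17a1a is 1 of the lower members at each time. It is also counted among the held calls at 2, 7 and 14 dpi, but is no support for a fall. In mutants the calls against untouched fish were nearly all rises, and col11a2 is 1 of the lower members at each time. It is also counted among the held calls at each time, but is no support for a fall. At 2 dpi, 13 members were higher and 1 lower (27.5% and 24.9% of all genes). At 5 dpi, 8 were higher and 2 lower (26% and 25.3%). At 7 dpi, 11 were higher and 1 lower (8.83% and 5.74%), and with the pairs averaged 6 were higher and 1 lower. At 14 dpi, 14 were higher and 1 lower (21.3% and 18.2%). The median difference of the 19 members was 0.91, 0.20, 0.71 and 0.88 at 2, 5, 7 and 14 dpi, beside 0.26, 0.40, 0.42 and 0.25 in wild type, and of these mutant calls 10 of 14, 7 of 10, 7 of 12 and 14 of 15 held under all 28 alternatives. The median over all tested genes lay between -0.03 and 0.05 in these 8 comparisons.

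**Figure D1:**
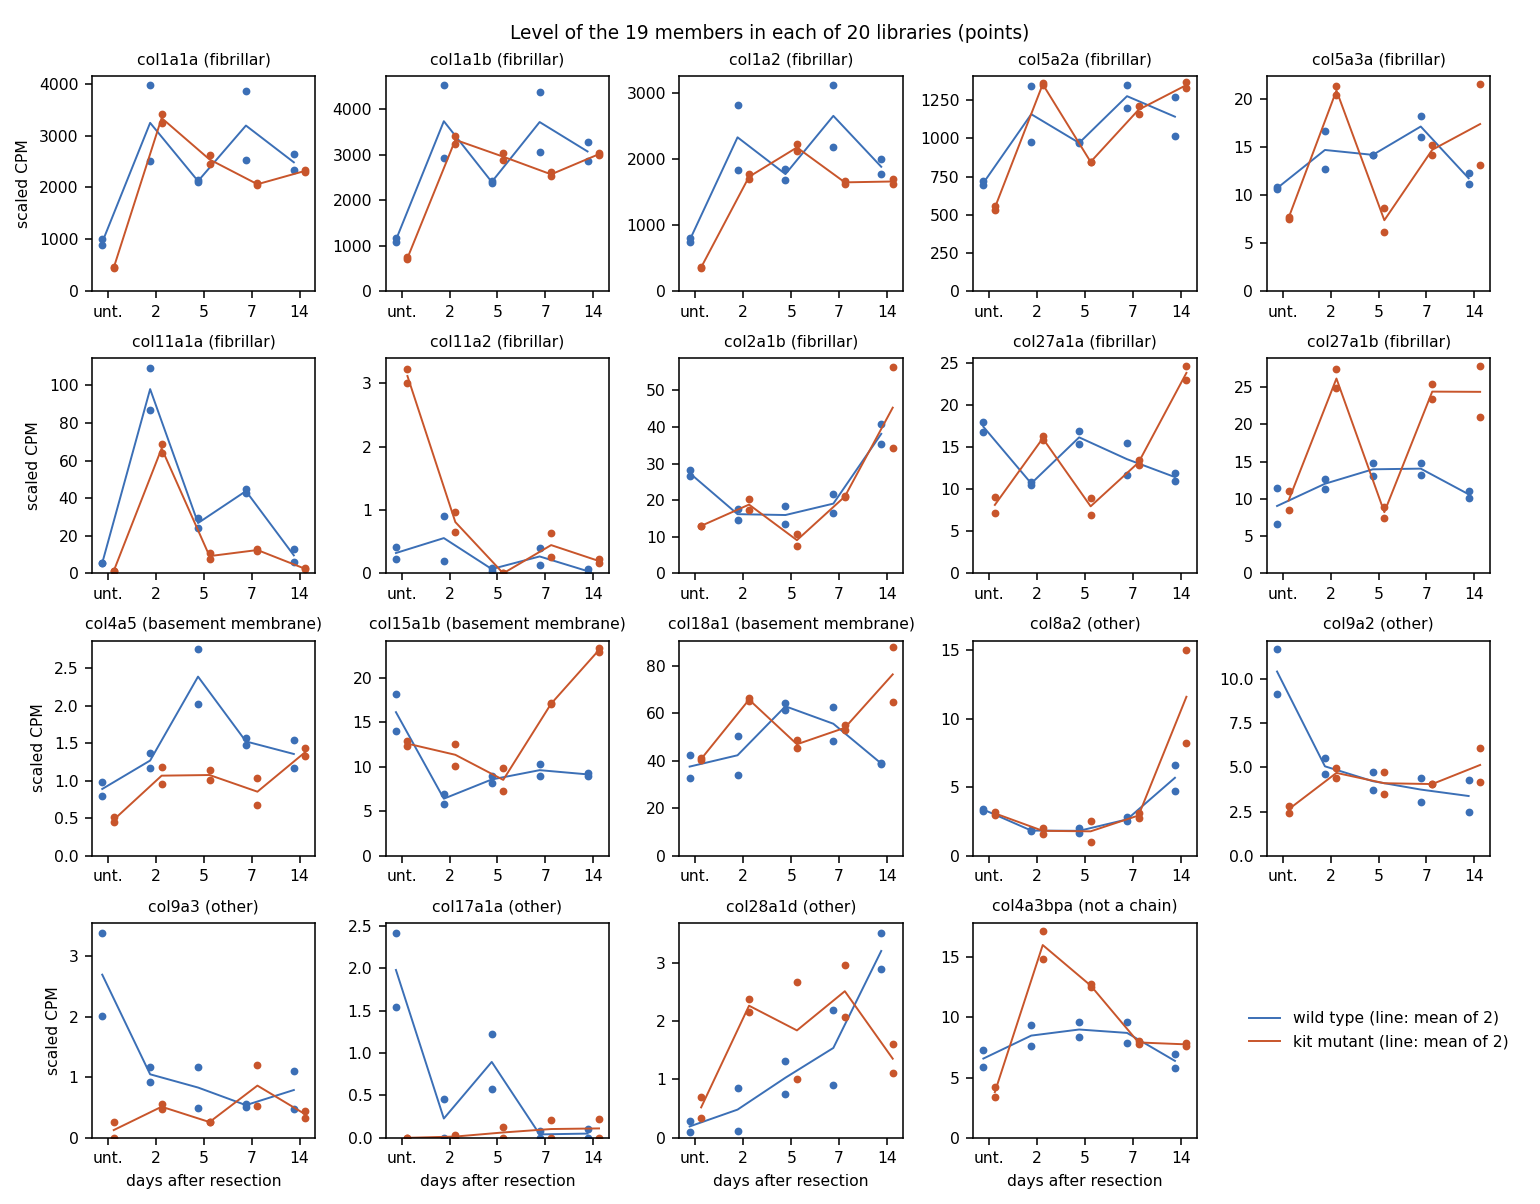
Level of each of the 19 members in scaled CPM (vertical axis, from 0) in untouched hearts (unt.) and at 2, 5, 7 and 14 days after resection (horizontal axis), with a point per library, a line through the mean of 2, blue for wild type and orange for kit mutant. The type I chains and col11a1a rise from their untouched level in both genotypes, while col9a2 and col9a3 have their highest wild-type libraries when untouched.

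Of the 10 fibrillar chains, 5, 6, 7 and 4 were higher in wild type at 2, 5, 7 and 14 dpi, and 2, 1, 0 and 1 lower. Of all genes, 26.4%, 15.9%, 17.5% and 13.2% were higher and 25.2%, 17%, 17.3% and 11.6% lower. In mutants 8, 5, 9 and 8 were higher (27.5%, 26%, 8.83% and 21.3% of all genes), where the 9 at 7 dpi became 6 with the pairs averaged. The 1 fibrillar chain called lower in mutants at each time is col11a2, which passed the filter through untouched mutants. Type I collagen is built in zebrafish from the chains of col1a1a, col1a1b and col1a2, and reads that fit both alpha 1 paralogs could be split or dropped in a way the sources used here do not give. The level of col1a1a in wild type was 884 and 999.6 scaled CPM in the untouched libraries, 2520 and 3973 at 2 dpi, 2111 and 2134 at 5 dpi, 3867 and 2521 at 7 dpi, and 2329 and 2641 at 14 dpi. Every injured wild-type library lay above both untouched ones. In mutants its level was 440.4 and 462 untouched, 3427 and 3252 at 2 dpi, 2624 and 2456 at 5 dpi, 2079 and 2045 at 7 dpi, and 2303 and 2338 at 14 dpi. Mutants thus began lower and came to a similar range. The log2 difference from untouched was 1.75 ± 0.19 (SE) at 2 dpi in wild type (adjusted p 2.0e-06) and 2.89 ± 0.19 in mutants (adjusted p 5.4e-09).

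The second alpha 1 gene, col1a1b, went from 1075 and 1177 scaled CPM in untouched wild type to 2936 and 4539 at 2 dpi, and from 707 and 742 in untouched mutants to 3417 and 3239. Its groups did not overlap in either genotype. The alpha 2 gene, col1a2, went from 739 and 801 to 1840 and 2822 in wild type and from 350 and 366 to 1769 and 1697 in mutants, again without overlap. At all 4 times the 3 genes rose, with log2 differences of 1.09 to 1.76 in wild type and 1.82 to 2.89 in mutants, and all 24 of these calls held under every alternative. The highest mean of col1a2 stood at 7 dpi in wild type (2656) and at 5 dpi in mutants (2177), while col1a1a had its highest mean at 2 dpi in both (3246 and 3339).

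Between the genotypes, untouched mutants were lower than untouched wild type in col1a1a by -1.06 ± 0.19 (adjusted p 0.00036) and in col1a2 by -1.10 ± 0.17 (adjusted p 0.00011). For col1a1b the difference was -0.63 ± 0.18 (adjusted p 0.0099), a call that ended with the pairs averaged (adjusted p 0.10), without wild type untouched replicate 2 (0.069) or without mutant untouched replicate 1 (0.065). None of the 3 passed the threshold at 2, 5 or 14 dpi. At 7 dpi mutants were lower in col1a1a (-0.60 ± 0.19, adjusted p 0.029), col1a1b (-0.51 ± 0.18, adjusted p 0.044) and col1a2 (-0.67 ± 0.17, adjusted p 0.0098). All 3 calls ended with the pairs averaged (adjusted p 0.20, 0.25 and 0.12). Without wild type 7 dpi replicate 1, the library with the higher type I levels, those of col1a1a and col1a2 had adjusted p of 0.35 and 0.15, and that of col1a1b ended under 16 alternatives, with adjusted p up to 0.40.

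The difference of the responses, mutant minus wild type, was positive for col1a1a at 2 dpi (1.14 ± 0.27), 5 dpi (1.32 ± 0.27) and 14 dpi (0.96 ± 0.27), and for col1a2 at 2 dpi (0.71 ± 0.25), 5 dpi (1.40 ± 0.25) and 14 dpi (0.92 ± 0.25). Only the 5 dpi values held under every alternative (adjusted p 0.0018 and 0.00056). With the pairs averaged the other 4 had adjusted p of 0.057, 0.075, 0.18 and 0.063. For col1a1b the response differed at 5 dpi (0.93 ± 0.25, adjusted p 0.010; 0.071 with the pairs averaged). Since all these differences subtract the untouched groups, they share the untouched values given for each gene.

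Reads of col1a1a relative to those of col1a2, a ratio within a library that is not corrected for gene length, stood at 1.92 to 1.94 in the 2 mutant libraries of 2 dpi. The other 18 libraries had 1.14 to 1.42. The ratio of col1a1a to col1a1b was 1.00 in the same 2 libraries, 0.622 and 0.623 in untouched mutants, and 0.769 to 0.90 in the remaining 16. The mutant libraries of 2 dpi stand apart in both ratios, and they are also the only ones of lane 7.

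**Figure D2:**
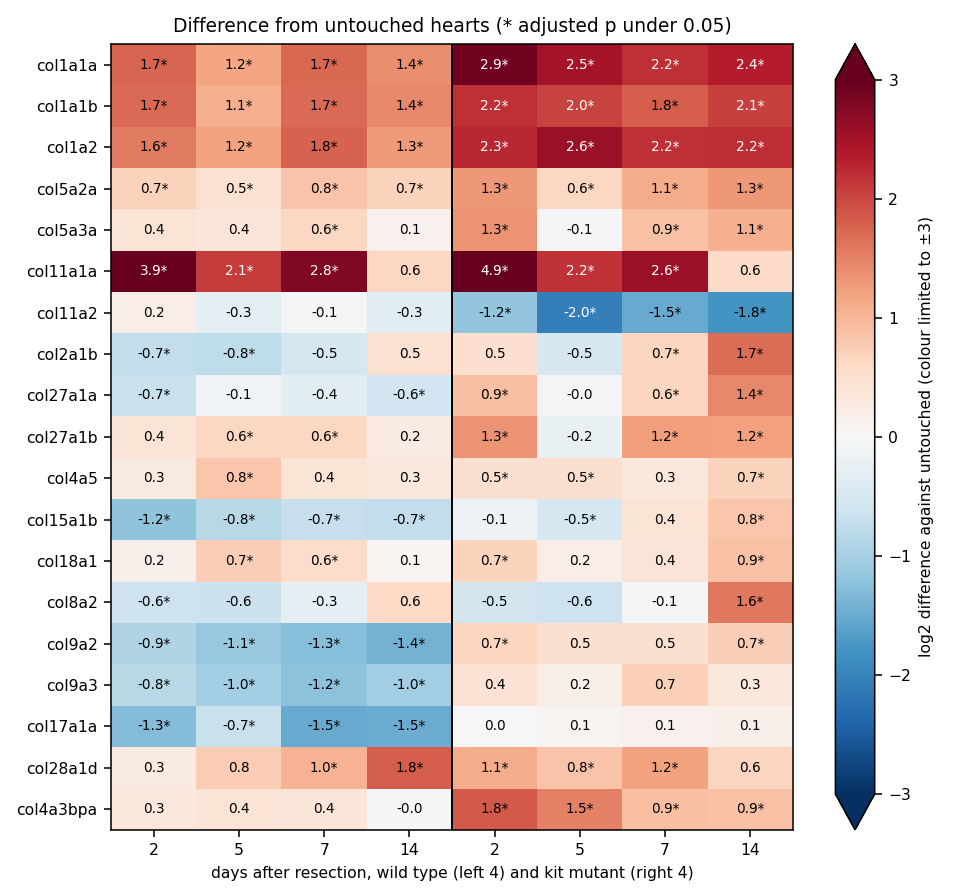
Log2 difference from untouched hearts of the same genotype (colour and number, blue lower and red higher) for the 19 members (rows) at 2, 5, 7 and 14 dpi in wild type (left 4 columns) and kit mutants (right 4 columns), with an asterisk for an adjusted p under 0.05. The 3 type I rows are positive and called in all 8 columns, and the rows of col9a2 and col15a1b are negative and called in the 4 wild-type columns.

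Type V chains join type I fibres and control their start and diameter. The level of col5a2a was 697 and 719 scaled CPM in untouched wild type, 976 and 1342 at 2 dpi, 967 and 974 at 5 dpi, 1353 and 1201 at 7 dpi and 1016 and 1269 at 14 dpi. Untouched mutants had 559 and 532, then 1361 and 1349, 845 and 848, 1215 and 1161, and 1367 and 1333. No injured library overlapped the untouched ones of its genotype. It rose at all 4 times in both genotypes, by 0.45 to 0.85 in wild type and 0.63 to 1.31 in mutants. The smallest of these, wild type at 5 dpi (0.45 ± 0.13, adjusted p 0.016), ended with the pairs averaged (adjusted p 0.054) or without any 1 of the 4 libraries compared (adjusted p 0.058 to 0.070). Untouched mutants were lower than wild type by -0.38 ± 0.13 (adjusted p 0.034), a call that ended in the same way (0.19 with the pairs averaged, 0.085 to 0.16 without 1 of the 4 libraries). Relative to the summed type I reads, col5a2a stood at 0.339 to 0.374 in untouched mutants, 0.242 to 0.258 in untouched wild type and 0.107 to 0.198 after injury, a description of unequal change within libraries.

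The other type V member, col5a3a, was 10.7 and 10.8 scaled CPM in untouched wild type and between 11.2 and 18.2 after injury, where only 7 dpi passed the threshold (0.63 ± 0.19, adjusted p 0.015). That call ended without untouched replicate 1 (0.060), untouched replicate 2 (0.059) or 7 dpi replicate 2 (0.092). In mutants it went from 7.71 and 7.52 to 21.4 and 20.5 at 2 dpi, then 6.14 and 8.64 at 5 dpi, 14.2 and 15.3 at 7 dpi and 13.2 and 21.7 at 14 dpi. The level thus dropped at 5 dpi to that of untouched mutants and was high before and after. Rises at 2 dpi (1.35 ± 0.19, adjusted p 1.5e-05) and 14 dpi (1.06 ± 0.19, adjusted p 0.00036) held under every alternative, and that at 7 dpi (0.87 ± 0.19) had an adjusted p of 0.21 with the pairs averaged. At 5 dpi mutants were lower than wild type by -0.87 ± 0.19 (adjusted p 0.0017, held under every alternative).

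Type XI collagen forms thin fibrils with types II and V, and its alpha 1 gene col11a1a had the largest rise of any member at 2 dpi in both genotypes. Its level in wild type was 5.33 and 5.66 scaled CPM untouched, 87.1 and 109 at 2 dpi, 29.3 and 24.2 at 5 dpi, 42.6 and 44.9 at 7 dpi, and 5.99 and 13.1 at 14 dpi. Mutants had 1.02 and 1.47 untouched, 69.0 and 63.9 at 2 dpi, 7.47 and 10.8 at 5 dpi, 11.9 and 12.9 at 7 dpi and 2.05 and 2.65 at 14 dpi. Wild-type libraries were above mutant ones at every time, without overlap. The ratio of the 2 dpi mean to the untouched mean was 17.9 in wild type and 53.4 in mutants, and the log2 differences were 3.92 ± 0.24 (adjusted p 4.3e-09) and 4.92 ± 0.24 (adjusted p 2.2e-10). By 14 dpi neither genotype passed the threshold (0.61 ± 0.24, adjusted p 0.075, and 0.58 ± 0.24, adjusted p 0.068).

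Mutants were lower than wild type in col11a1a by -1.54 ± 0.24 untouched (adjusted p 0.00011), -1.47 ± 0.24 at 5 dpi (0.00024), -1.74 ± 0.24 at 7 dpi (0.00011) and -1.57 ± 0.24 at 14 dpi (0.00018), all held under every alternative. At 2 dpi the difference was -0.55 ± 0.24 and did not pass (adjusted p 0.064). The responses differed by 0.99 ± 0.34 at 2 dpi (adjusted p 0.029), a call that 9 of the 28 alternatives ended (adjusted p 0.054 to 0.15). At 5, 7 and 14 dpi the response differences were 0.07, -0.20 and -0.03, each with an SE of 0.34, and none passed.

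The type XI alpha 2 gene col11a2 had few reads, 0 to 57 a library. Untouched mutants stood alone with 3.23 and 3 scaled CPM (57 and 47 reads), while the other 18 libraries had 0 to 0.965 (0 to 35 reads). Both mutant libraries of 5 dpi had 0 reads, so the untouched mutant mean was at least 16.4-fold higher than theirs, set at a floor of 3 reads a library. These levels are those through which the gene passed the filter, so no test is given for them. Untouched mutants also stood apart in 4 neutrophil markers, with a summed level of 465 scaled CPM against 11.6 to 52.2 in the other 9 groups, and the part of that in the col11a2 level was not tested.

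Type II collagen, the main fibrillar collagen of cartilage, was represented by col2a1b. Its level in wild type was 26.6 and 28.2 scaled CPM untouched, 14.7 and 17.7 at 2 dpi, 13.4 and 18.5 at 5 dpi, 21.6 and 16.5 at 7 dpi and 35.3 and 40.9 at 14 dpi. In mutants it was 12.9 and 13, then 20.3 and 17.3, 7.40 and 10.7, 21.2 and 20.8, and 34.3 and 56.3. Both genotypes were highest at 14 dpi, but the rise from untouched passed only in mutants (1.69 ± 0.21, adjusted p 1.7e-05, against 0.46 ± 0.21, adjusted p 0.13). Untouched mutants were below untouched wild type by -1.02 ± 0.21 (adjusted p 0.0011), and the 14 dpi response differed by 1.23 ± 0.30 (adjusted p 0.0047), both held under every alternative. Falls in wild type at 2 dpi (-0.73 ± 0.21, adjusted p 0.0085) and 5 dpi (-0.76 ± 0.21, adjusted p 0.011) ended with CPM as deposited (0.13 and 0.080), and without 2 dpi replicate 1 (0.062), or untouched replicate 2 (0.068) and 5 dpi replicate 1 (0.14).

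Type XXVII chains are short fibrillar collagens known from cartilage and the notochord sheath. The level of col27a1a in wild type was 16.8 and 18 scaled CPM untouched, 10.8 and 10.5 at 2 dpi, 15.4 and 16.9 at 5 dpi, 11.7 and 15.5 at 7 dpi and 11.9 and 11 at 14 dpi. In mutants it was 7.20 and 9.06, then 16.3 and 15.8, 6.96 and 8.96, 13.4 and 12.9, and 24.7 and 23. The order of the genotypes turned over time, with mutants lower when untouched and at 5 dpi and higher at 2 and 14 dpi, each without overlap.

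Mutants differed from wild type in col27a1a by -1.02 ± 0.14 untouched (adjusted p 4.0e-05), 0.54 ± 0.14 at 2 dpi (0.0041), -0.94 ± 0.14 at 5 dpi (0.00013) and 1.00 ± 0.14 at 14 dpi (0.00011), all held under every alternative. The response difference was 1.56 ± 0.20 at 2 dpi (adjusted p 3.0e-05) and 2.02 ± 0.20 at 14 dpi (adjusted p 3.5e-06), where wild type fell (-0.66 and -0.57) and mutants rose (0.91 and 1.45). The wild-type fall at 14 dpi (adjusted p 0.0091) ended without untouched replicate 2 (0.059) or 14 dpi replicate 2 (0.072).

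Its paralog col27a1b lay between 6.69 and 14.9 scaled CPM in all 10 wild-type libraries. Mutant libraries had 8.51 and 11 untouched and 7.47 and 8.96 at 5 dpi, but 27.4 and 24.9 at 2 dpi, 25.4 and 23.4 at 7 dpi and 27.8 and 20.9 at 14 dpi. The mutant libraries of 2, 7 and 14 dpi were thus above every other library. Mutants exceeded wild type at 2 dpi by 1.06 ± 0.19 (adjusted p 0.00020), at 14 dpi by 1.12 ± 0.19 (0.00047) and at 7 dpi by 0.76 ± 0.19 (0.0086, but 0.087 with the pairs averaged). At 5 dpi they were lower by -0.70 ± 0.19 (adjusted p 0.0090), a call that ended without wild type 5 dpi replicate 1 (0.074) or mutant 5 dpi replicate 1 (0.086).

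Of the 3 basement membrane chains, col15a1b was lower at all 4 times in wild type (25.2%, 17%, 17.3% and 11.6% of all genes). In wild type 2 chains were higher at 5 dpi and 1 at 7 dpi (15.9% and 17.5%), and the 7 dpi call ended with the pairs averaged. In mutants all 3 were higher at 14 dpi (21.3%). The 4 mutant calls of this class at 2 and 5 dpi all ended with the pairs averaged. Type XV and XVIII are proteoglycan collagens that release antiangiogenic fragments from their ends, and in mice loss of type XV is known to weaken skeletal and heart muscle. The level of col15a1b in wild type was 18.2 and 14.0 scaled CPM untouched, 5.84 and 6.96 at 2 dpi, 8.94 and 8.18 at 5 dpi, 10.3 and 8.91 at 7 dpi and 8.95 and 9.31 at 14 dpi. In mutants it was 12.9 and 12.3, then 12.5 and 10.1, 7.21 and 9.81, 17 and 17.2, and 22.9 and 23.3. Every injured wild-type library was below the untouched ones, while the mutant libraries of 7 and 14 dpi were above theirs. The summed level of 7 measured markers of endothelium and endocardium was also lower after injury in wild type. It was 4088 scaled CPM untouched and 1828, 2048, 2433 and 3144 after injury. In wild type 6, 6, 5 and 3 of the 7 were called lower at 2, 5, 7 and 14 dpi (25.2%, 17%, 17.3% and 11.6% of all genes). In mutants that sum was 3723 untouched, then 2193, 3883, 3237 and 3605. The largest part was 1 gene, aqp8a.1, with 2008 and 2085 in untouched mutants and 2902 and 2542 in those of 5 dpi. In mutants 5, 4, 1 and 0 of the 7 were called lower (24.9%, 25.3%, 5.74% and 18.2%). Called higher were 1, 1, 0 and 0 (27.5%, 26%, 8.83% and 21.3%). The part of these cells in the col15a1b levels was not tested.

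In wild type col15a1b fell at all 4 times, by -1.20 ± 0.15 at 2 dpi (adjusted p 9.6e-06), -0.83 at 5 dpi, -0.68 at 7 dpi and -0.75 at 14 dpi, each ± 0.15. In mutants it rose at 14 dpi (0.83 ± 0.15, adjusted p 0.00055), and the 7 dpi difference of 0.41 ± 0.15 did not pass (adjusted p 0.087). Mutants exceeded wild type by 0.73 at 2 dpi, 0.77 at 7 dpi and 1.25 at 14 dpi, each ± 0.15 (adjusted p 0.00072, 0.0018 and 2.7e-05). All 8 of these calls held under every alternative. The mutant fall at 5 dpi (-0.53 ± 0.15, adjusted p 0.0093) ended with the pairs averaged (0.066), without mutant untouched replicate 1 (0.055) or without mutant 5 dpi replicate 1 (0.14).

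The level of col18a1 was 42.3 and 32.8 scaled CPM in untouched wild type and 40.4 and 41.1 in untouched mutants. Wild type was highest at 5 dpi, with 61.5 and 64.5 (0.74 ± 0.17, adjusted p 0.0037, but 0.061 without untouched replicate 2). Mutants reached 65.3 and 66.3 at 2 dpi and 65.0 and 88.0 at 14 dpi, and the 14 dpi rise of 0.88 ± 0.17 (adjusted p 0.00084) held under every alternative. The 2 dpi rise of 0.68 ± 0.17 (adjusted p 0.0034) did not pass with the pairs averaged (0.088). At 14 dpi mutants exceeded wild type, which had 39.1 and 38.6, by 0.94 ± 0.17 (adjusted p 0.00074).

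Type IV collagen is the network former of basement membranes, and its member here, col4a5, had 7 to 61 reads a library. Its level rose in wild type at 5 dpi, from 0.802 and 0.977 scaled CPM to 2.02 and 2.76 (0.84 ± 0.17, adjusted p 0.0013). In mutants it went from 0.510 and 0.446 to 1.44 and 1.33 at 14 dpi (0.69 ± 0.17, adjusted p 0.0039). Both calls held under every alternative that tested the gene. Mutants were below wild type at 5 dpi by -0.70 ± 0.17 (adjusted p 0.0038, but 0.053 without wild type 5 dpi replicate 2).

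Of the 5 other chains, 4, 3, 3 and 3 were lower in wild type at 2, 5, 7 and 14 dpi (25.2%, 17%, 17.3% and 11.6% of all genes). At each time 1 of these is col17a1a, which passed the filter through untouched wild type and is no support for a fall. In mutants 2, 1, 1 and 2 were higher (27.5%, 26%, 8.83% and 21.3%), of which 1, col8a2 at 14 dpi, was called with the pairs averaged. Type IX collagen coats cartilage fibrils, and its gene col9a2 had 11.7 and 9.16 scaled CPM in untouched wild type, 5.52 and 4.62 at 2 dpi, 3.70 and 4.75 at 5 dpi, 3.07 and 4.43 at 7 dpi and 2.48 and 4.28 at 14 dpi. Mutants had 2.44 and 2.81 untouched, then 4.96 and 4.42, 4.75 and 3.47, 4.04 and 4.07, and 4.16 and 6.13. The 2 untouched wild-type libraries were above all 18 others. Wild type fell by -0.91, -1.13, -1.28 and -1.41 at 2, 5, 7 and 14 dpi, each ± 0.22 (adjusted p 0.0028 to 0.00026), and untouched mutants were lower than untouched wild type by -1.65 ± 0.22 (adjusted p 2.5e-05).

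No difference between the genotypes in col9a2 passed after injury. Its response difference was positive at all 4 times, 1.56, 1.62, 1.76 and 2.15, each ± 0.31, and every one of these calls held under all alternatives. The mutant rises at 2 dpi (0.65 ± 0.22, adjusted p 0.021) and 14 dpi (0.75 ± 0.22, adjusted p 0.014) did not pass with the pairs averaged (0.19 and 0.11).

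The other type IX gene, col9a3, had 59 and 39 reads in the untouched wild-type libraries and 0 to 26 in the other 18. Its level was 3.38 and 2.01 scaled CPM in untouched wild type and at most 1.20 elsewhere. The wild-type differences were -0.83, -1.01, -1.24 and -1.04 at 2, 5, 7 and 14 dpi, each ± 0.24. Only the 7 dpi fall held under every alternative that tested the gene (adjusted p 0.00088). Those of 2, 5 and 14 dpi ended without untouched replicate 1 (adjusted p 0.13, 0.063 and 0.075) or without replicate 1 of the injured group (0.056, 0.081 and 0.070). Untouched mutants, with 0 and 4 reads, were lower than wild type by -1.70 ± 0.24 (adjusted p 4.7e-05), and from that level no fall could be seen in mutants.

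Type XVII is a transmembrane collagen of epithelial attachment. Its gene col17a1a had 27 and 47 reads in untouched wild type, 13 and 27 in wild type at 5 dpi and 0 to 7 in the other 16 libraries. The mean in untouched wild type was 1.98 scaled CPM, at least 10.4-fold higher than in untouched mutants, which had 0 reads and were set at a floor of 3 reads a library. The untouched wild-type libraries are those through which the gene passed the filter, so no test against them is given. Mutants at 5 dpi had 2 and 0 reads. A wild-type library of 5 dpi was also among those with 1 CPM or more, so no test is given for that time either.

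Type VIII collagen is a short-chain collagen of vessel walls and injured arteries. The level of col8a2 was 3.44 and 3.29 scaled CPM in untouched wild type and 3.18 and 3 in untouched mutants, below that at 2 and 5 dpi in all 8 libraries, and highest at 14 dpi, with 4.75 and 6.62 in wild type and 8.20 and 15 in mutants. The 14 dpi rise passed in mutants (1.57 ± 0.25, adjusted p 0.00017, held under every alternative) and not in wild type (0.60 ± 0.25, adjusted p 0.093). At 14 dpi mutants exceeded wild type by 0.87 ± 0.25 (adjusted p 0.015), a call that ended without mutant 14 dpi replicate 2 (0.20) or wild type 14 dpi replicate 1 (0.14). The wild-type fall at 2 dpi (-0.63 ± 0.25, adjusted p 0.048) ended under 19 alternatives, among them the average of the pairs (0.088).

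The type XXVIII gene col28a1d, listed in RefSeq as col28a1b, had 2 to 80 reads a library. Wild type went from 0.286 and 0.103 scaled CPM untouched to 3.51 and 2.89 at 14 dpi (1.81 ± 0.31, adjusted p 0.00045). That call held under every alternative that tested the gene. Mutants had 0.340 and 0.701 untouched and 1.11 and 1.60 at 14 dpi, with higher values at 2 dpi (2.15 and 2.38) and 7 dpi (2.96 and 2.07). The mutant calls at 2, 5 and 7 dpi (adjusted p 0.0058, 0.029 and 0.013) ended with the pairs averaged (0.095, 0.13 and 0.30). Mutants exceeded wild type at 2 dpi by 1.18 ± 0.31 (adjusted p 0.0035, but 0.053 without wild type 2 dpi replicate 1). Their lower level at 14 dpi (-0.84 ± 0.31, adjusted p 0.047) ended under 20 alternatives, among them edgeR on the recovered reads (0.10).

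The gene that is no collagen, col4a3bpa, was 5.86 to 7.27 scaled CPM in untouched wild type and 5.78 to 9.60 after injury, with no call. In mutants it went from 4.20 and 3.38 to 14.8 and 17.1 at 2 dpi and 12.7 and 12.5 at 5 dpi, and then to 7.65 to 8.03 at 7 and 14 dpi. It was also called lower in untouched mutants than in untouched wild type, and higher in mutants than in wild type at 2 and 5 dpi. That 5 dpi difference between the genotypes ended under 5 alternatives. Against untouched mutants, the rises at 2 dpi (1.83 ± 0.15) and 5 dpi (1.51 ± 0.15) held under every alternative. It accounts for 1 of the members counted higher in mutants at each time (adjusted p 0.065 at 7 dpi with the pairs averaged).

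Between the genotypes, most called members were lower in untouched mutants and at 5 dpi. At 2 and 14 dpi more were called higher than lower, but the numbers called higher lay near the shares of all genes. In untouched fish 1 member, col11a2, was higher and 11, with col17a1a among them, lower in mutants (18.9% and 21.2% of all genes), and 10 of the 12 calls held under every alternative. The held calls include those of col11a2 and col17a1a, which are no support for a change. The gene col4a3bpa, no collagen, is also 1 of the 11. At 2 dpi, 7 were higher and 0 lower (27.3% and 30.3%), with col4a3bpa among the 7. At 2 dpi 1 member was called lower with quantile normalization (8 higher, 1 lower) and 2 with edgeR (7 higher, 2 lower), and 2 members were lower at an unadjusted p under 0.05 in limma.

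At 5 dpi with CPM as deposited, 0 members were higher and 9 lower. With scaled CPM 8 were called, 1 higher, col4a3bpa, and 7 lower, with col17a1a among them (19.1% and 19.5% of all genes). That count fell to 4 without wild type 5 dpi replicate 2 and to 5 without mutant 5 dpi replicate 1. At 7 dpi, 2 were higher and 4 lower (13.1% and 14%). The 7 dpi split was 1 higher and 1 lower with the pairs averaged, without wild type 7 dpi replicate 1 or without mutant 7 dpi replicate 1. It was 2 higher and 1 lower without mutant 7 dpi replicate 2, so no direction held at 7 dpi. At 14 dpi, 5 were higher and 2 lower (16.2% and 14.8%), or 7 and 1 with CPM as deposited and 6 and 1 with edgeR.

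**Figure D3:**
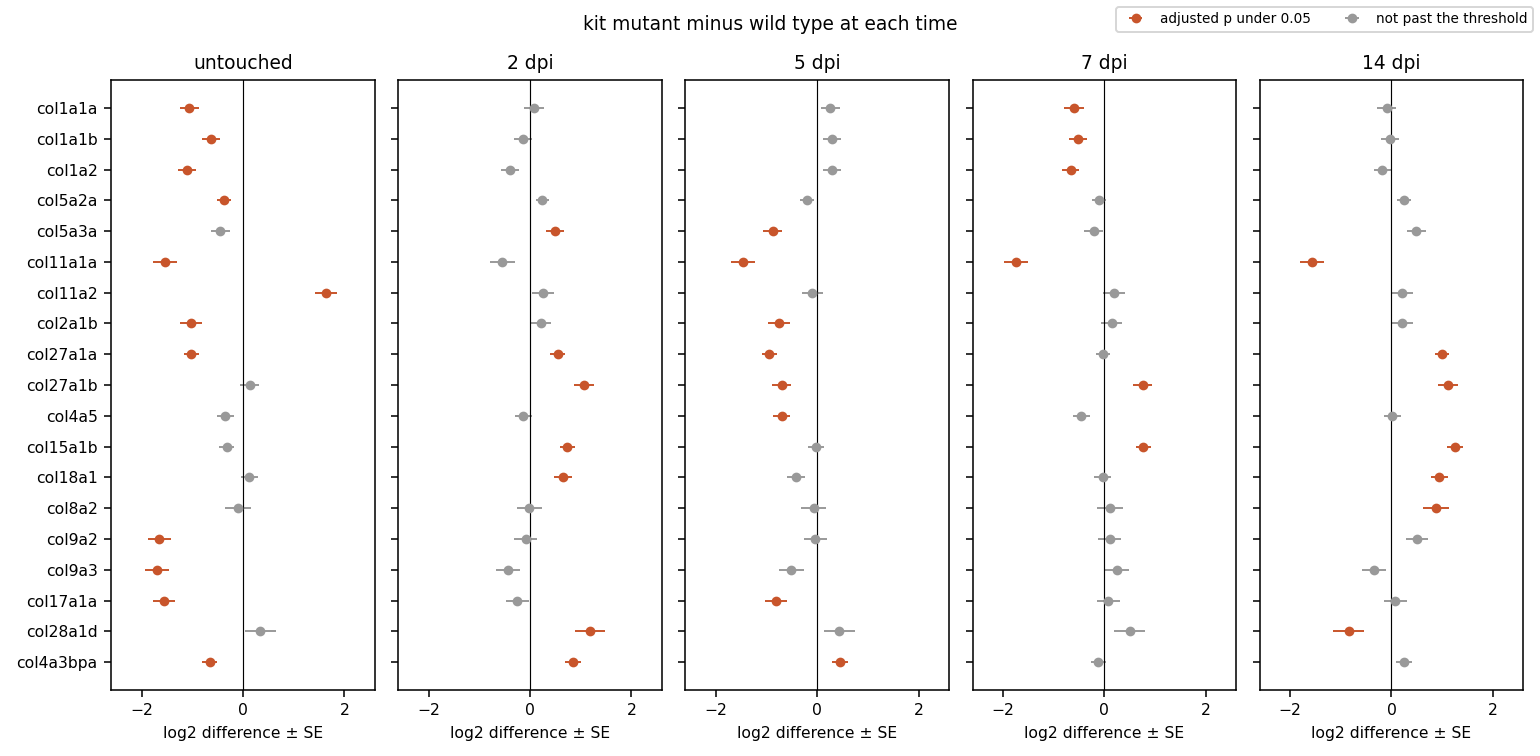
Log2 difference of kit mutant minus wild type (horizontal axis, point with SE bar) for the 19 members (rows) in untouched hearts and at 2, 5, 7 and 14 dpi (panels), orange where the adjusted p was under 0.05 and grey otherwise. In untouched hearts 11 points are orange and below 0, and col11a1a is below 0 in all 5 panels.

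The difference of the responses was mostly positive, that is, from their own untouched level mutants moved further up or less far down than wild type. At 2 dpi, 13 members had a positive and 1 a negative call (20.6% and 20.3% of all genes). At 5 dpi it was 6 and 2 (17.8% and 17.2%), at 7 dpi 6 and 1 (9.19% and 9.57%), and at 14 dpi 14 and 2 (17.5% and 15.7%). With the pairs averaged these became 4 and 1, 4 and 1, 2 and 0, and 7 and 1. A negative call at each time is that of col11a2, and a positive one at 2, 7 and 14 dpi that of col17a1a. Another positive call at 2, 5 and 14 dpi is that of col4a3bpa, which is no collagen. Under edgeR the splits at 7 and 14 dpi were 5 and 0, and 13 and 0. All 4 comparisons use the same untouched groups, so they are not independent of each other.

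Summed over the 10 fibrillar chains, the level was 3616 ± 213 scaled CPM in untouched wild type (SD over 2 libraries) and 2122 ± 35.2 in untouched mutants, of which type I held 2838 and 1534. At 2, 5, 7 and 14 dpi the wild-type sums were 10626, 7355, 10954 and 8665, and the mutant sums 9904, 8562, 7552 and 8459. Fibrillar chains took 0.189% to 1.37% of all reads of a library. Neither these sums nor those of the next classes were tested, since they are scores over the members.

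Without type I and col5a2a, the 6 minor fibrillar chains followed another course in mutants. Their sum was 42.8 scaled CPM untouched, 149 at 2 dpi, 41.8 at 5 dpi, 86.1 at 7 dpi and 113 at 14 dpi, while the type I sum was 1534, 8400, 7674, 6278 and 6995. At 5 dpi the sum of the minor chains was thus near its untouched value while type I was still high. This holds for the sum and not for each chain. The mean of col11a1a went from 1.24 scaled CPM in untouched mutants to 9.15 in those of 5 dpi. The means of the other minor chains were lower at 5 dpi than untouched, but of these only col11a2 was called. That gene passed the filter through untouched mutants, so its level is no support for a fall. For col27a1a, col27a1b and col5a3a the libraries of the 2 groups overlapped. In wild type the minor chains summed to 70.4, 152, 87.1, 108 and 81.5, and type I to 2838, 9315, 6297, 9569 and 7441.

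Basement membrane chains summed to 54.6, 50.002, 73.9, 66.8 and 49.3 scaled CPM in wild type and to 53.8, 78.2, 56.6, 71.9 and 101 in mutants. The other chains summed to 18.7, 8.65, 8.79, 8.51 and 13.1 in wild type and to 6.36, 9.29, 8.04, 10.5 and 18.6 in mutants. Both classes were thus highest in mutants at 14 dpi among the mutant groups, and the other chains were highest in untouched fish among the wild-type groups. Of the 19 members, 8 had their highest mutant mean at 14 dpi and 7 at 2 dpi. In wild type 5 were highest untouched, 4 at 2 dpi, 3 at 5 dpi, 4 at 7 dpi and 3 at 14 dpi. These counts have no value for all genes beside them and are a description only. They include col4a3bpa, which is no collagen, and col17a1a, whose highest mutant mean was 0.111 scaled CPM. In wild type col17a1a was highest in the untouched group, through which it passed the filter.

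**Figure D4:**
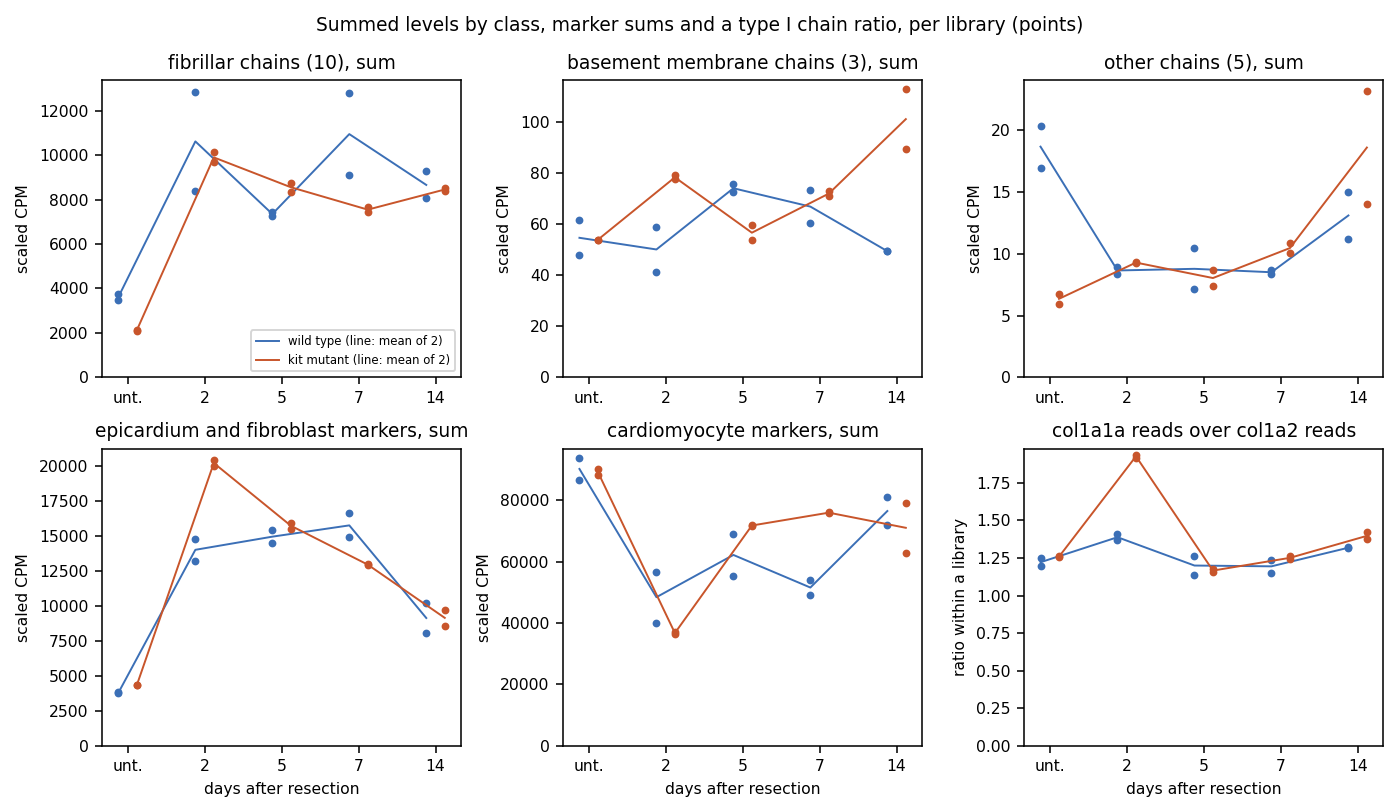
Summed level per library (points, line through the mean of 2, in scaled CPM from 0) of the fibrillar, basement membrane and other chains, of the markers of epicardium and fibroblast and of cardiomyocytes, and the ratio of col1a1a to col1a2 reads, by days after resection, blue for wild type and orange for kit mutant. The fibrillar sum and the sum of the epicardium and fibroblast markers are higher in every injured group than in untouched fish. The 2 mutant libraries of 2 dpi lie at 1.92 to 1.94 in the ratio, above the other 18.

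Collagen chains need a set of enzymes and chaperones for hydroxylation, folding, cleavage and cross-linking. Of 56 listed genes of this machinery, 35 were in the matrix and 32 were tested. In wild type 21 were higher and 5 lower at 2 dpi (26.4% and 25.2% of all genes) and 18 and 4 at 5 dpi (15.9% and 17%). At 7 dpi it was 20 and 3 (17.5% and 17.3%), and at 14 dpi 14 and 4 (13.2% and 11.6%). In mutants it was 24 and 2 at 2 dpi (27.5% and 24.9%) and 22 and 2 at 5 dpi (26% and 25.3%). Mutants had 19 and 1 at 7 dpi (8.83% and 5.74%) and 25 and 1 at 14 dpi (21.3% and 18.2%). With the pairs averaged the mutant count at 7 dpi was 9 and 0. The median of the 32 genes was 0.66, 0.47, 0.65 and 0.27 in wild type and 0.96, 0.61, 0.52 and 0.71 in mutants. That of all tested genes lay between -0.03 and 0.05.

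The lysyl hydroxylase gene plod2, whose product prepares collagen for stable cross-links, rose in wild type from a mean of 71.7 to 312, 259, 335 and 168 scaled CPM at 2, 5, 7 and 14 dpi (2.1 ± 0.09 at 2 dpi, adjusted p 1.1e-10). It rose in mutants from 112 to 525 at 2 dpi (2.22 ± 0.09). The gene fkbp10b, encoding a prolyl isomerase of the endoplasmic reticulum that assists collagen folding, rose from 12.5 to 71.0 in wild type at 2 dpi (2.42 ± 0.11) and from 7.03 to 48.2 in mutants (2.61 ± 0.11). The protease gene tll1, whose product is of the family that trims procollagen, fell in wild type at all 4 times, from 36.2 to 19.2, 17.4, 20.2 and 24.5. In mutants it fell at 2 dpi (-0.64 ± 0.11, but -0.30 with an adjusted p of 0.059 on CPM as deposited) and 5 dpi (-1.08 ± 0.11) and rose at 14 dpi (0.60 ± 0.11), from 29.0 to 44.4.

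The paralogs of the collagen chaperone Hsp47 differed from each other. In wild type serpinh1b fell at 2 dpi from 647 to 312 scaled CPM (-1.04 ± 0.12, adjusted p 3.7e-06), and at that time mutants exceeded wild type in it by 1.03 ± 0.12, with a mean of 640. At 5 dpi mutants were lower in it by -0.97 ± 0.12. In untouched mutants serpinh1a was lower by -1.24 ± 0.10 (48.7 against 116), and its response difference was positive at 2 dpi (0.98 ± 0.14), 5 dpi (1.55 ± 0.14), 7 dpi (0.73 ± 0.14, adjusted p 0.0018, but 0.062 with the pairs averaged) and 14 dpi (1.69 ± 0.14).

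Of the 32 processing genes, 4 were higher and 16 lower in untouched mutants than in untouched wild type (18.9% and 21.2% of all genes). At 2 dpi it was 12 and 7 (27.3% and 30.3%) and at 5 dpi 6 and 5 (19.1% and 19.5%). At 7 dpi it was 2 and 14 (13.1% and 14%) and at 14 dpi 7 and 5 (16.2% and 14.8%). The counts of 5 and 14 dpi lay near the shares of all genes. With the pairs averaged the 5 counts were 4 and 10, 7 and 5, 4 and 4, 0 and 7, and 6 and 2. Prolyl hydroxylase genes stabilise the triple helix and went in different directions. In mutants p4ha1b was higher at 2 dpi (1.42 ± 0.11, 342 against 127), 5 dpi (0.54 ± 0.11) and 7 dpi (0.49 ± 0.11, adjusted p 0.0047, but 0.086 with the pairs averaged). In contrast p4ha2 was lower when untouched (-1.02 ± 0.12, 56.0 against 115) and at 7 dpi (-1.05 ± 0.12, 53.7 against 112). The cross-linking enzyme gene loxl2b rose in both genotypes at all 4 times, by 0.73 to 1.23 in wild type and 1.58 to 2.1 in mutants, and loxl1 was higher in mutants when untouched (0.91 ± 0.14) and at 14 dpi (0.66 ± 0.14). The response differences of the list were 14 positive and 2 negative at 2 dpi (20.6% and 20.3% of all genes) and 12 and 3 at 5 dpi (17.8% and 17.2%). At 7 dpi they were 5 and 3 (9.19% and 9.57%), and at 14 dpi 13 and 1 (17.5% and 15.7%). With the pairs averaged they were 9 and 0, 10 and 0, 0 and 1, and 7 and 1. The response difference of sparc, a collagen-binding matrix protein, was 1.74 ± 0.20 at 5 dpi. Negative response calls included those of ctage5 at 5, 7 and 14 dpi and of plod2 at 5 and 7 dpi. Untouched mutants were called higher than untouched wild type in plod2. Against untouched mutants, ctage5 was called lower at 5, 7 and 14 dpi. With the pairs averaged no gene of the list was called lower in mutants at 7 or 14 dpi.

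**Figure D5:**
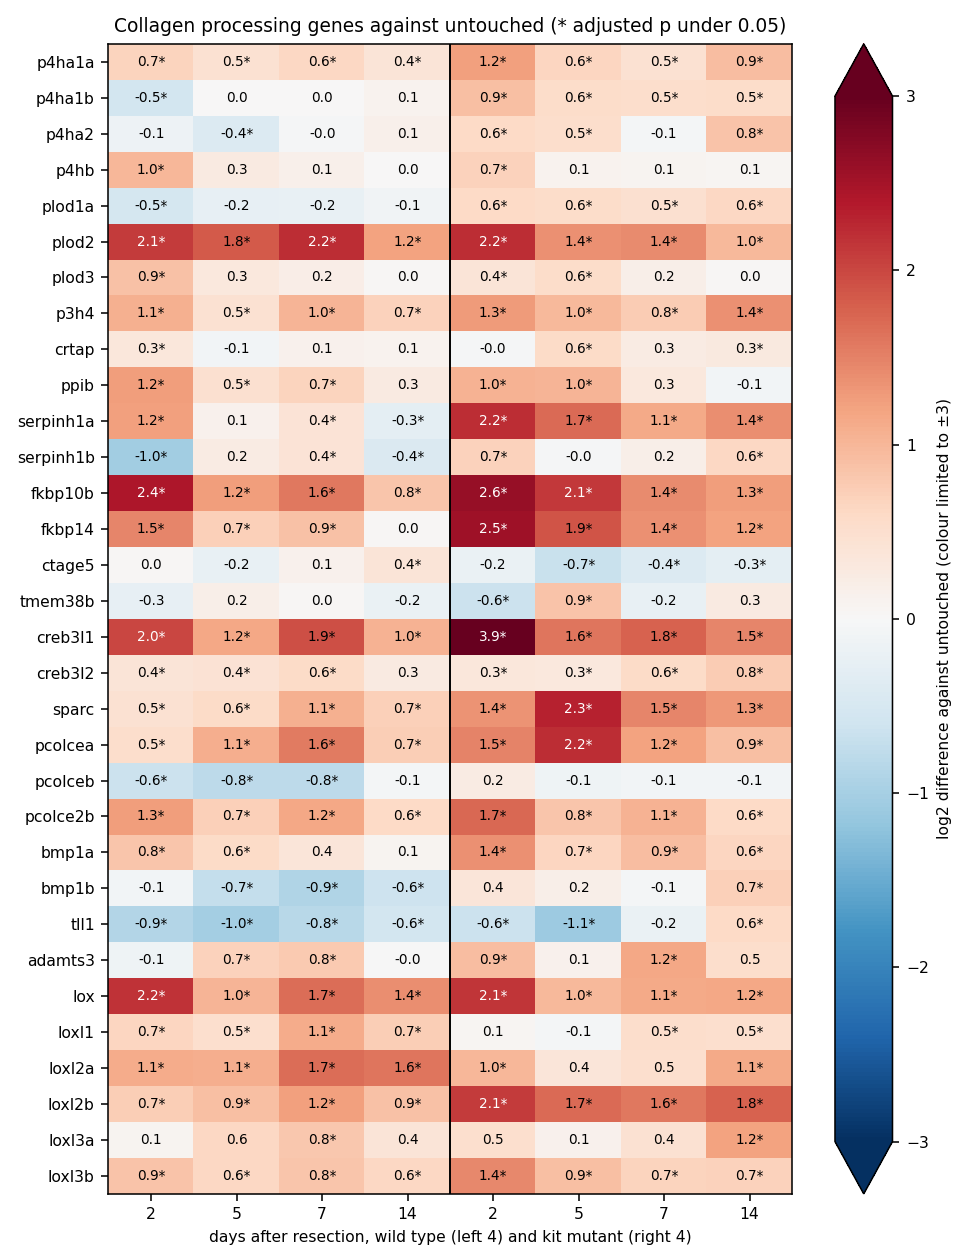
Log2 difference from untouched hearts of the same genotype (colour and number) for the 32 tested collagen processing genes (rows) at 2, 5, 7 and 14 dpi in wild type (left 4 columns) and kit mutants (right 4 columns), with an asterisk for an adjusted p under 0.05. The rows of plod2 and fkbp10b are positive and called in all 8 columns, and the tll1 row is negative and called in the 4 wild-type columns.

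Of 18 listed collagen receptor genes, 5 were in the matrix and 4 were tested, itga11a, itgb1a, itgb1b.1 and itgb1b.2. Collagen-binding integrins pair an alpha subunit such as that of itga11a with a beta 1 subunit. Called higher in wild type at 2, 5, 7 and 14 dpi were 0, 1, 1 and 2 (26.4%, 15.9%, 17.5% and 13.2% of all genes). Called lower were 0, 1, 1 and 1 (25.2%, 17%, 17.3% and 11.6%). In mutants 1, 0, 1 and 2 were higher (27.5%, 26%, 8.83% and 21.3%). There 0, 2, 0 and 0 were lower (24.9%, 25.3%, 5.74% and 18.2%), and with the pairs averaged 1 was lower at 5 dpi. At 14 dpi itgb1b.2 was lower in wild type (-0.86, adjusted p 0.0020) and itgb1a higher in mutants (0.47, adjusted p 0.00071), and both calls held under every alternative. Further calls at 14 dpi, itga11a in wild type (1.04) and mutants (0.99) and itgb1a in wild type (0.26), ended with the pairs averaged (adjusted p 0.069, 0.14 and 0.13). Mutants exceeded wild type in 2, 1 and 2 of the 4 at 2, 7 and 14 dpi (27.3%, 13.1% and 16.2% of all genes). They were lower in 1 untouched and 1 at 5 dpi (21.2% and 19.5%). With the pairs averaged, 1 higher at 2 dpi and 1 lower at 5 dpi were left.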

How the data were processed

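RNA of cardiomyocytes from 8 pooled ventricles was sequenced in 20 libraries. The deposited matrix holds CPM per gene symbol. Per the submitters' processing notes, FastQC and featureCounts were used with danRer10, and aligner, annotation and versions were not given in the sources used here. Values were whole multiples of 1 read (100% within 0.1 read), which gave the reads per library, and a floor of 3 reads (0.0947 to 0.205 CPM) covers counting error only. Left out were 3 lines without a gene name. The source name of the 14 dpi samples gives another day, and the titles' 14 was used. Scaled CPM are CPM over a median-ratio factor per library, computed from 11000 genes (0.881 to 1.18). Genes with 1 CPM in 2 libraries were fitted on log2(scaled CPM + 1) by limma 3.58.1 (trend, R 4.3.3) with 10 group means and 17 two-sided contrasts, Benjamini-Hochberg adjusted over 10914 genes. The method was tested on simulated data with independent libraries, so that test does not cover the near-identical pairs. Alternatives were CPM as deposited, quantile normalization, other filters, a pseudocount of 0.25, a replicate block, averaged pairs, edgeR 4.0.16 on recovered reads and leaving out each library. Named were the 8 members with the highest mean, and in each contrast the 3 members and 2 processing genes a direction with the lowest adjusted p at 5 scaled CPM or more. Of the processing genes so picked, plod3, crtap, ppib, adamts3 and pcolcea are not described, nor is every contrast of the others. Other members named were chosen after their values were seen. The members and lists were chosen with earlier results of these data known. No sequences were used.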

Additional observations from a re-analysis of the deposited data

Results flagged for a closer look

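The test of the response difference (mutant minus wild type, each against its own untouched group, on the log2 scale) passed the threshold for 45 of the member results. At 2 dpi the positive values were 1.56 for col27a1a, 1.56 for col9a2, 1.5 for col4a3bpa, 1.31 for col17a1a, 1.26 for col9a3, 1.23 for col2a1b, 1.14 for col1a1a, 1.06 for col15a1b, 0.99 for col11a1a, 0.94 for col5a3a, 0.93 for col27a1b, 0.71 for col1a2 and 0.62 for col5a2a, and the negative one was -1.39 for col11a2. At 5 dpi they were 1.62 for col9a2, 1.40 for col1a2, 1.32 for col1a1a, 1.18 for col9a3, 1.11 for col4a3bpa, 0.93 for col1a1b, -0.83 for col27a1b and -1.74 for col11a2.

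At 7 dpi the values were 1.95 for col9a3, 1.76 for col9a2, 1.64 for col17a1a, 1.17 for col2a1b, 1.1 for col15a1b, 0.99 for col27a1a and -1.46 for col11a2. At 14 dpi they were 2.15 for col9a2, 2.02 for col27a1a, 1.64 for col17a1a, 1.57 for col15a1b, 1.35 for col9a3, 1.23 for col2a1b, 0.98 for col27a1b, 0.97 for col8a2, 0.96 for col1a1a, 0.94 for col5a3a, 0.92 for col1a2, 0.91 for col4a3bpa, 0.82 for col18a1 and 0.62 for col5a2a, with -1.18 for col28a1d and -1.44 for col11a2. Values of col11a2 and col17a1a depend on the 1 added before the logarithm, since groups with 0 reads enter them. Both genes also passed the filter through the untouched group where they were high, which favours these differences, so they are given as descriptions. Of the 45 calls, 19 held under every alternative that tested the gene, and 25 ended with the near-identical pairs averaged. Those of col8a2 and col28a1d at 14 dpi ended under 20 and 17 alternatives, and that of col11a1a at 2 dpi under 9.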

How the results depend on the processing

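Of 184 calls of a member over the 17 comparisons, 114 held under each of the 28 alternatives that tested the gene. Averaging the 3 near-identical pairs ended 51. Averaged pairs gave 7 members called in mutants at 7 dpi, 2 between the genotypes at 7 dpi, and 5, 5, 2 and 8 for the response difference at 2, 5, 7 and 14 dpi. With a filter of 5 CPM in place of 1, which left fewer members to test, the response difference at 7 dpi had 4 members called. Leaving out 1 library at a time gave 10 to 13, 8 to 15, 9 to 14 and 9 to 11 members in wild type at 2, 5, 7 and 14 dpi, and 11 to 16, 7 to 12, 9 to 12 and 14 to 16 in mutants. Between the genotypes it gave 10 to 13 untouched and 6 to 9, 4 to 9, 2 to 6 and 5 to 8 after injury, and for the response difference 11 to 17, 6 to 9, 6 to 8 and 12 to 17. The difference of col1a1b between the genotypes at 14 dpi, -0.02 with an adjusted p of 0.94, was 0.46 with an adjusted p of 0.047 under quantile normalization, and the cause was not tested. Replicate numbers do not pair the libraries: of 45 pairs of groups, 3 had deviations that correlated above 0.1 (range -0.29 to 0.14). With the replicate number as a block, 6 of 386 member or processing gene results lost their call and 5 gained one, and the member counts stayed within 1.5 times. Depth limits col11a2, col17a1a and col9a3, which have 0 reads in some libraries. The 184 calls and the 114 that held include calls of col11a2 and col17a1a. Where these compare the group through which the gene passed the filter, they are no support for a change.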
